A study of Mus musculus with 4 samples.

Results

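The Ly49 receptors, encoded by the Klra genes, were followed probe set by probe set on 4 Affymetrix mouse expression arrays. The members were all probe sets that the platform annotation assigns, alone or together with another gene, to Klra1, Klra2, Klra3, Klra5, Klra7, Klra8, Klra9, Klra16, Klra17 or Klra22, which gave 11 of the 45037 probe sets tested for these 10 of 19324 named genes. The RNA was from splenic CD8 T cells of wild-type B6 mice, isolated by sorting, and no treatment is named. Cells of the Ly49+ group (2 samples) were CD44+CD122+Ly49+, a population named CD8 Treg in the labels. Cells of the Ly49- group (2 samples) were CD44+CD122+Ly49- and are described there as conventional memory cells. CD44 marks cells that have met antigen or acquired a memory phenotype, and CD122 is the beta chain of the receptors for interleukins 2 and 15. The labels do not name the antibodies of the sort, give the animals' age, or state that each sample had its own animals. The p-values below therefore rest on a spread between samples that could be technical.

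Ly49 molecules are lectin-like receptors, best known from natural killer (NK) cells, that bind MHC class I molecules. Inhibitory members carry a tyrosine-based motif in the cytoplasm that recruits phosphatases such as SHP-1, whereas activating members lack it and signal through the adaptors DAP12 (Tyrobp) and DAP10 (Hcst). Each NK cell expresses only some of the family, so a population is a mixture of cells with different sets of receptors. The genes lie on chromosome 6, most of them close together and Klra2 further off. They are copies of one another, close to differing degrees, which bears on what an array can tell apart. Because the cells were separated by Ly49 protein on their surface, a higher Ly49+ signal for the family as a whole checks the sort and is not a finding. The same holds for the direction of any single member that the unnamed antibodies bound, and which members these were is not known. The size of each difference and the Ly49- readings are given below for each probe set.

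The closeness of the copies can be seen in their upstream sequence. RefSeq (GRCm38.p6) gave windows of 300 bases around the annotated start, 250 before and 50 after it, for 8 of the 10 members, with none for Klra16 or Klra22. RefSeq lists Klra22 as another name of Klra1. Klra7 and Klra8 had 2 windows each, and those of Klra8 overlapped. Of the 10 windows, 8 windows of 7 genes aligned with the window of Klra5 over at least 200 bases, at between 74.7% and 90.0% identity for the other genes. The windows of Klra9 and Klra3, which share a probe set on the array, were 96.4% identical over 281 aligned bases. The window of Klra1 and 1 window of Klra7 lay outside this set. In the following windows, shown because they belong to the members with the brightest signals and to the dim Klra17, the capitals mark the longest run of bases that the windows of all but 1 gene of the set share. All lie on the minus strand and are written 5′ to 3′.
Klra7, chr6:130233273-130233572: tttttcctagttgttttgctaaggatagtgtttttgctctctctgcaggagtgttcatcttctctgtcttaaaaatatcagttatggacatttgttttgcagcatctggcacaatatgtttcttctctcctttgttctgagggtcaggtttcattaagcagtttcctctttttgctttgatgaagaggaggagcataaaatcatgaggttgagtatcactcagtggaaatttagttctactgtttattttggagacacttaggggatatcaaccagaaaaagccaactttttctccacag
Klra8, chr6:130129849-130130148: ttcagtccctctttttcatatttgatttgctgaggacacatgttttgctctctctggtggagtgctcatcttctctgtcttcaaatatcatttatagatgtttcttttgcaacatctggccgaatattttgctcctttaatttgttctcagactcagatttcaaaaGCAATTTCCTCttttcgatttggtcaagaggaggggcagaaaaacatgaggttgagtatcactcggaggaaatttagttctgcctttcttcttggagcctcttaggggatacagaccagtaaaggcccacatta
Klra5, chr6:129913175-129913474: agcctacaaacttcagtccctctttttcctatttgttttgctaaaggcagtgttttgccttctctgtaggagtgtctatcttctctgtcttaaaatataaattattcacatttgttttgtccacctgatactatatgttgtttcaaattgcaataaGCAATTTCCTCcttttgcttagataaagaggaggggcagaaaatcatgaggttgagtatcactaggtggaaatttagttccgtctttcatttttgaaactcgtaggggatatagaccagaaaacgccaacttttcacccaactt
Klra9, chr6:130193063-130193362: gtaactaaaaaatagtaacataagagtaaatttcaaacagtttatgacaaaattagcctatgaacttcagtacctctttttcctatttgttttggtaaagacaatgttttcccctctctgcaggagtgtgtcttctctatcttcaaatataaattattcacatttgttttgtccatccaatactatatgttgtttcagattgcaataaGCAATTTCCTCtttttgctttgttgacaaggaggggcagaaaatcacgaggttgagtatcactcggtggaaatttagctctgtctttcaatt
Klra3, chr6:130337577-130337876: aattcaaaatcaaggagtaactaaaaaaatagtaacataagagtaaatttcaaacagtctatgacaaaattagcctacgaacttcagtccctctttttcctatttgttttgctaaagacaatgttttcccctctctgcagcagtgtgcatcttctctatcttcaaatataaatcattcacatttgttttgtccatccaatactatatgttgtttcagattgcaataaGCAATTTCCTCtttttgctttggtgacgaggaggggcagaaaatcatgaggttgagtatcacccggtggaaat
Klra17, chr6:129876623-129876922: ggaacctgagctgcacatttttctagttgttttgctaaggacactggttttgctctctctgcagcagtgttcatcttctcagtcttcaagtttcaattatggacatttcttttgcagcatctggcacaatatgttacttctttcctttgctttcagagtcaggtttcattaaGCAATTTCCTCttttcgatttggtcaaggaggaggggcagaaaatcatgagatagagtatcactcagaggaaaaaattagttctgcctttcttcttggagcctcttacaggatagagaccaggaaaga

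The run GCAATTTCCTC, searched on both strands and chosen after these windows had been read, was in 7 of the 10 Klra windows and in 0.058% of all 32851 promoter windows. The windows of Klra5, Klra8, Klra9, Klra3, Klra17 and Klra2 held it, and neither window of Klra7 did. The longest run shared by all 8 windows of the set was CCTCTTTT, of 8 bases, so its presence in each follows from that choice. It was in 1.94% of all windows. In the windows shown, Klra5, Klra8, Klra9 and Klra3 each held a copy of this shorter run upstream of the longer run. A further copy overlapped the longer run in Klra8, Klra9 and Klra3 but not in Klra5. The members with these runs included genes read far above the controls and genes read below them, as the intensities show.

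Of the 11 probe sets, 7 were of the type _x_at, which may also detect related transcripts, and 2 were assigned to a pair of genes, Klra9 with Klra3 and Klra22 with Klra1. Klra3, Klra9 and Klra22 had no probe set of their own, and no probe set was named for Klra4, Klra6 or Klra10, which are not analysed here. A signal from an _x_at probe set of this family may thus come from more than 1 member, and the genes below name the annotation of the probe set. As a limit of detection, the highest of 27 probe sets for Bacillus subtilis genes, a bacterium whose genes mouse RNA does not hold, was taken on each array. It read 64.3 and 60.5 on the Ly49+ arrays and 70.3 and 66.5 on the Ly49- arrays. On the deposited intensity scale, 5 Klra probe sets lay above it in both groups, 2 in the Ly49+ group alone and 4 in neither.

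**Figure D1:**
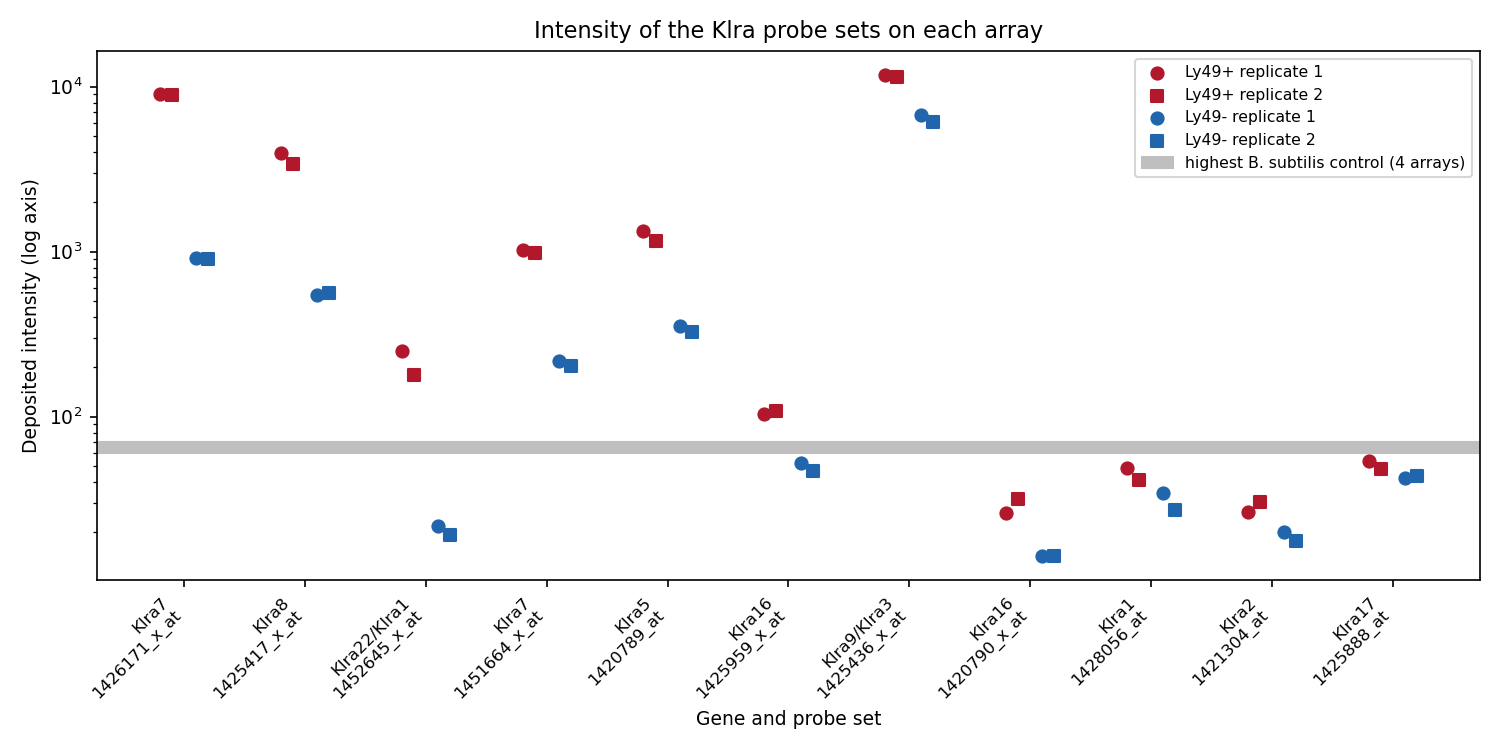
Deposited intensity (log axis) of the 11 Klra probe sets on each of the 4 arrays, with Ly49+ in red and Ly49- in blue; the grey band spans the highest Bacillus subtilis control of the 4 arrays. Both Ly49+ values lie above both Ly49- values for every probe set, and the 4 probe sets on the right, 1420790_x_at of Klra16 and those of Klra1, Klra2 and Klra17, lie below the band in both groups.

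In Ly49+ cells 8 of the 11 Klra probe sets were higher and 0 were lower at a limma adjusted p under 0.05, while 3 did not pass. Of all probe sets, 1.19% were called by the same rule, 0.766% higher and 0.429% lower. Both Ly49+ arrays exceeded both Ly49- arrays for all 11 Klra probe sets, as they did for 15.7% of all probe sets, and in either direction the groups were apart for 44.9%. The median log2 fold change, Ly49+ over Ly49-, was 0.90 for the Klra probe sets and -0.03 for all probe sets. With any 1 array left out, 6 Klra probe sets were called, except that 5 were called when Ly49- replicate 2 was the one removed. The probe sets lost were the 2 for Klra16 in each case and, without Ly49- replicate 2, the one shared by Klra22 and Klra1.

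Klra7 encodes Ly49G, an inhibitory receptor, and had the largest log2 fold change of all 45037 probe sets with 16 added. With a pseudocount of 1, the probe set shared by Klra22 and Klra1 gave 3.31, slightly above the 3.30 of Klra7. The Ly49- readings of that shared probe set lay below the controls. The Klra7 probe set 1426171_x_at read 8969 and 8895 in Ly49+ cells, against 910 and 900 in Ly49- cells. The replicates differed by a ratio of 1.01 in either group, while the lowest Ly49+ value was 9.77 times the highest Ly49- value. The log2 fold change was 3.28 ± 0.06 (SE, 2 arrays per group), with a 95% interval of 3.15 to 3.41, or 9.71-fold (limma adjusted p = 3.9e-06). The other Klra7 probe set, 1451664_x_at, read 1025 and 983 in Ly49+ cells, against 217 and 203 in Ly49- cells. It gave 2.17 ± 0.10 on the log2 scale, with an interval of 1.94 to 2.40 (adjusted p = 5.4e-04). The intervals of the Klra7 probe sets did not overlap, although both carry the same gene name, and the difference between them was not tested.

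Klra8 encodes Ly49H, an activating receptor that pairs with DAP12 and recognises a protein of mouse cytomegalovirus. It read 3957 and 3401 in Ly49+ cells, against 543 and 562 in Ly49- cells. The lowest Ly49+ value was 6.06 times the highest Ly49- value. The log2 fold change was 2.70 ± 0.09 (SE, interval 2.48 to 2.91, adjusted p = 1.2e-04), the third largest of all probe sets with 16 added.

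Klra5, which encodes the inhibitory receptor Ly49E, was the only member above the controls that was read by a probe set of the type _at, the type not marked as open to related transcripts. Its intensities were 1327 and 1162 in Ly49+ cells, against 355 and 326 in Ly49- cells. The groups did not overlap, and the log2 fold change was 1.82 ± 0.10 (SE, interval 1.58 to 2.07, adjusted p = 0.0018). In a fit without any probe set of the types _x_at and _s_at, Klra5 was the 1 of 4 remaining Klra probe sets that was called.

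Klra9 and Klra3 encode Ly49I and Ly49C, inhibitory receptors that bind the H-2Kb molecule of B6 mice. Their shared probe set read 11802 and 11430 in Ly49+ cells, against 6744 and 6110 in Ly49- cells. All 4 values lay far above the controls, so that the Ly49- arrays, too, carried a clear signal. Its log2 fold change of 0.85 ± 0.06 (SE, interval 0.72 to 0.98, adjusted p = 0.0026) was the smallest of the 5 probe sets above the controls in both groups, and its interval did not overlap any of the other 4. As the cells were measured in bulk, a few cells with much of a transcript and many cells with little of it cannot be told apart.

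**Figure D2:**
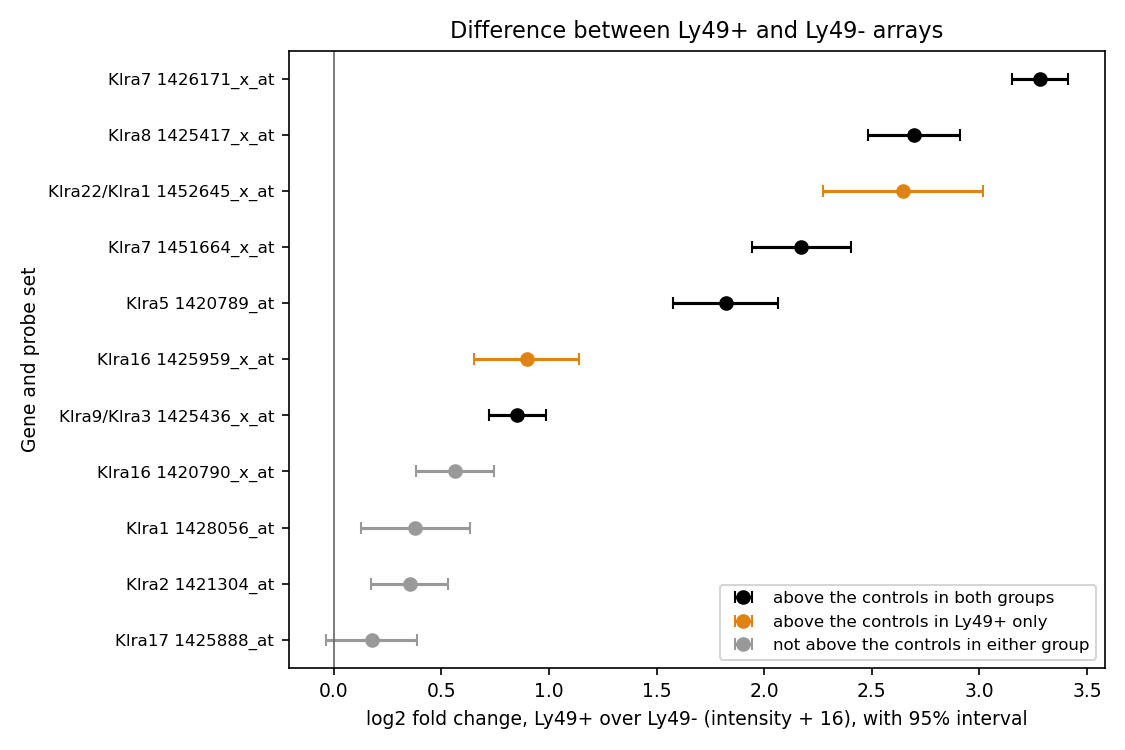
log2 fold change, Ly49+ over Ly49-, of each Klra probe set with its 95% interval from limma (2 arrays per group), coloured by whether the groups lay above the highest Bacillus subtilis control. Among probe sets above the controls in both groups, values run from 3.28 for Klra7 1426171_x_at to 0.85 for the probe set of Klra9 and Klra3; sizes for the other probe sets depend on the pseudocount.

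Klra1 encodes the inhibitory receptor Ly49A, and Klra22 is the name given to Ly49V, described from another mouse strain. The probe set shared by these names read 251 and 179 in Ly49+ cells, against 21.9 and 19.1 in Ly49- cells. The limma fit of these readings gave an adjusted p of 0.0019, which does not test the bound that follows. Only the Ly49+ arrays lay above the controls. Taking the highest control as the Ly49- level, the signal of this probe set was at least 3.10-fold higher in Ly49+ cells. It was also the Klra probe set whose Ly49+ replicates differed most, by 1.40 times, and without Ly49- replicate 2 its adjusted p was 0.051. The other Klra1 probe set, 1428056_at, read 48.5 and 41.4 in Ly49+ cells, against 34.6 and 27.3 in Ly49- cells, all below the controls (adjusted p = 0.20). The pair of Klra1 probe sets thus differed in whether any signal was read above the controls.

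Klra16 names Ly49P, an activating receptor described from other mouse strains. Its probe set 1425959_x_at read 104 and 108 in Ly49+ cells, against 52.3 and 46.8 in Ly49- cells. This probe set was called by the limma fit of these readings (adjusted p = 0.017). The Ly49- arrays lay below the controls, and the signal was at least 1.55-fold higher in Ly49+ cells, a bound that was not itself tested. The second probe set, 1420790_x_at, was called as well (adjusted p = 0.024), at 26.2 and 31.5 in Ly49+ cells, against 14.4 and 14.3 in Ly49- cells, but every one of these values was below the controls and no size is given. Removing any 1 array ended the call of both, with adjusted p from 0.075 to 0.13 for the first and from 0.051 to 0.18 for the second.

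Klra2 and Klra17 encode Ly49B and Ly49Q, which are known from myeloid cells and, for Ly49Q, plasmacytoid dendritic cells rather than from NK cells. Klra2 read 26.5 and 30.3 in Ly49+ cells, against 19.9 and 17.6 in Ly49- cells (adjusted p = 0.099). Klra17 read 53.5 and 48.2 in Ly49+ cells, against 42.6 and 43.7 in Ly49- cells (adjusted p = 0.46). Both genes were below the controls on all 4 arrays, so no level or size could be given. On the same arrays, 12 of 18 measured myeloid markers were higher in Ly49+ cells and 1, the neutrophil gene S100a9, was lower, with a median log2 fold change of 0.63. Genes outside the family were read by the brightest probe set of each, and of 18194 such genes 0.973% were called higher and 0.698% lower, with a median of -0.04. The summed intensity of these markers was 28150 and 31494 in Ly49+ cells, against 19205 and 19189 in Ly49- cells. Spic (1.26) and Vcam1 (0.73), both known from red pulp macrophages, Lyz2 (1.13), which encodes lysozyme, and Mpeg1 (0.83), a macrophage pore-forming protein, were among those that rose. Itgam and Csf3r were below the controls in both groups.

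**Figure D3:**
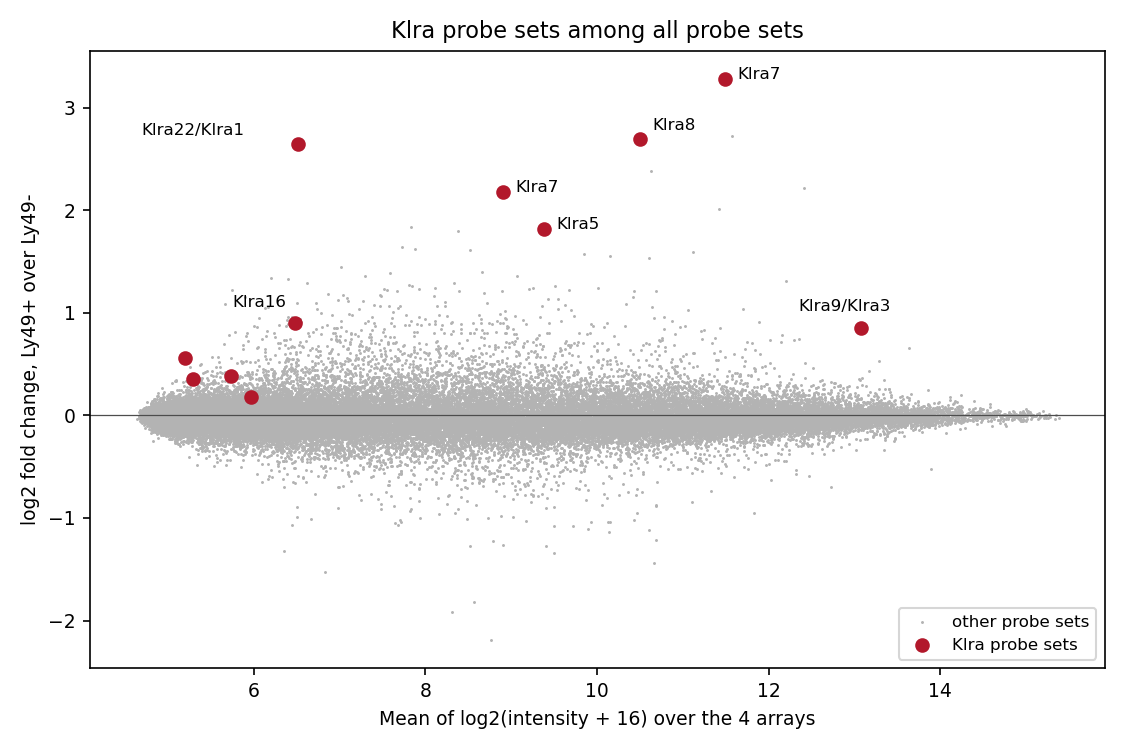
Each point is 1 of 45037 probe sets, at its mean log2(intensity + 16) over the 4 arrays and its log2 fold change, Ly49+ over Ly49-, with Klra probe sets in red. The probe set 1426171_x_at of Klra7 is the highest point at 3.28, and the 4 unlabelled red points at low intensity are those below the controls in both groups.

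Of the adaptors named above for activating Ly49 receptors, Tyrobp was higher in Ly49+ cells and Hcst did not pass. They were read in a list with the signalling chains Fcer1g, Cd247, Cd3d, Cd3e and Cd3g. Fcer1g, the gamma chain shared by Fc receptors and some NK receptors, read 2410 and 2590 in Ly49+ cells, against 1081 and 1053 in Ly49- cells (log2 fold change 1.22 ± 0.07 SE, adjusted p = 0.0019). Tyrobp, which encodes DAP12, read 3133 and 3372 in Ly49+ cells, against 2157 and 2089 in Ly49- cells (0.61 ± 0.06, adjusted p = 0.012). Hcst, which encodes DAP10, gave -0.10 ± 0.04 (adjusted p = 0.35). Of the 7 genes measured in this list, 2 passed, both higher in Ly49+ cells, and 5 missed the threshold; the median was 0.00. Fcer1g and Tyrobp are also made by myeloid cells, whose markers were higher on the same arrays, and their part in these differences was not tested.

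None of 9 inhibitory signalling genes passed the limma test at an adjusted p under 0.05, among them Ptpn6, which encodes SHP-1 (0.12 ± 0.04, adjusted p = 0.25). Their log2 fold changes lay between -0.08 and 0.12. Of 18 activating signalling genes 1 was higher, Lat2, an adaptor of B cells and myeloid cells (0.70 ± 0.11, adjusted p = 0.040), and 17 did not pass. Of 9 genes for the MHC class I ligands and their assembly, 0 passed. H2-K1 and H2-D1, which encode the classical class I molecules of B6 mice, gave 0.02 ± 0.03 (adjusted p = 0.86) and -0.04 ± 0.03 (adjusted p = 0.60).

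In a list of other lectin receptors, whose positions on the chromosome were not checked, 20 genes were measured. Of these, 6 passed as higher in Ly49+ cells, 1 as lower and 13 not at all. Their median was 0.14. Klre1, a receptor chain that pairs with other lectin-like chains, read 11709 and 11632 in Ly49+ cells, against 2568 and 2448 in Ly49- cells. Klrc1, which encodes the inhibitory receptor NKG2A, read 4900 and 5471 in Ly49+ cells, against 2786 and 2694 in Ly49- cells. Klrk1, which encodes the activating receptor NKG2D, read 3428 and 3436 in Ly49+ cells, against 2081 and 1972 in Ly49- cells. Klrc2 read 295 and 294 in Ly49+ cells, against 99.2 and 106 in Ly49- cells. These 4 genes had log2 fold changes of 2.21, 0.91, 0.76 and 1.39, with adjusted p of 0.0046 or below. The gene that fell was Klrg1 (-1.92 ± 0.28, adjusted p = 0.030), named here after its value was seen.

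**Figure D4:**
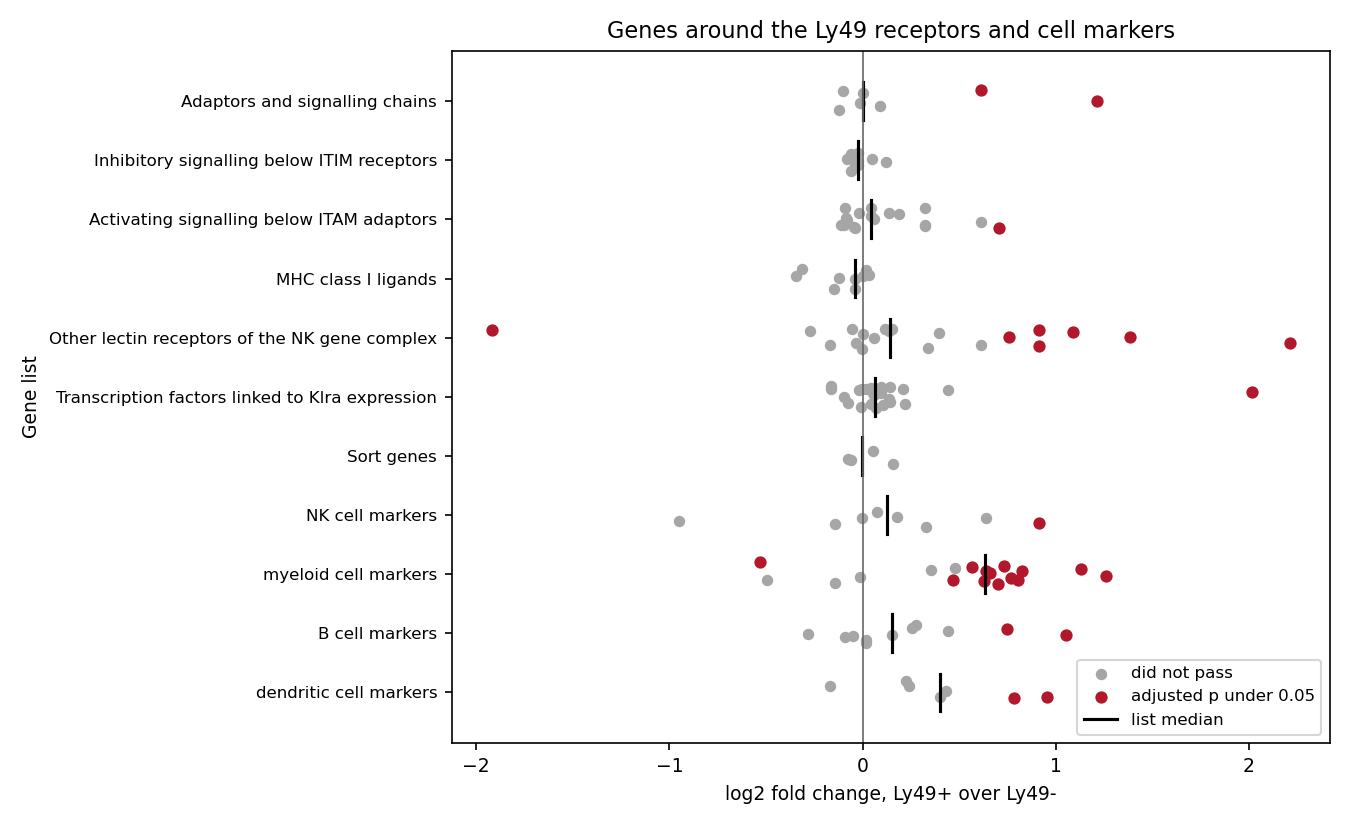
log2 fold change, Ly49+ over Ly49-, of the brightest probe set of each measured gene in 7 lists around the Ly49 receptors and 4 lists of cell markers; red points passed an adjusted p of 0.05 and black bars are list medians. The signalling chain Fcer1g (1.22) and the adaptor Tyrobp (0.61) stand apart in the first list, and the myeloid markers have the largest median, 0.63.

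Transcription factors linked to the expression of Klra genes or to the NK and memory T-cell programs differed in 1 of 24 measured cases. The list held 26, and Tcf7 was among those not measured. Ikzf2, which encodes Helios, the factor named in the series title, read 5529 and 5469 in Ly49+ cells, against 1443 and 1258 in Ly49- cells (2.02 ± 0.08, adjusted p = 2.3e-04). The other 23 did not pass, with a median for the list of 0.06. The sort genes Cd8a, Cd8b1, Cd44 and Il2rb gave -0.06, -0.07, 0.16 and 0.05 on the log2 scale, and none passed (adjusted p from 0.35 to 0.62).

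Markers of other cell types were read beside the family. Of 8 measured NK-cell markers, 1 was higher, the receptor gene Klrb1a (adjusted p = 0.021), and 7 did not pass. Klrb1a read 113 and 112 in Ly49+ cells, against 57.9 and 47.0 in Ly49- cells, where it lay below the controls. Ncr1, which marks NK cells, read 34.9 and 44.8 in Ly49+ cells, against 35.2 and 44.6 in Ly49- cells, below the controls on all arrays. The summed intensity of the NK-cell markers was 4014 and 5032 in Ly49+ cells, against 5329 and 7993 in Ly49- cells. Of this, the granule protease gene Gzma gave 2181 and 3116 in Ly49+ cells, against 3916 and 6509 in Ly49- cells. The lower sums in Ly49+ cells came from Gzma, which did not pass (adjusted p = 0.16). The median log2 fold change of the NK-cell markers was 0.13. For dendritic cells 2 of 7 markers were higher, H2-Ab1 and Xcr1. The summed intensity of the 7 was 8810 and 8818 in Ly49+ cells, against 6127 and 6044 in Ly49- cells. Most of that difference came from H2-Ab1, at 6029 and 5889 in Ly49+ cells, against 3437 and 3469 in Ly49- cells. The log2 fold changes of the 7 ran from -0.17 to 0.95, with a median of 0.40. For plasmacytoid dendritic cells 1 of 8 was higher, Irf8 (0.55), and for B cells 2 of 11, Cd22 (1.05) and H2-Aa (0.75). Other markers of both lists were lower without passing. The plasmacytoid list ran from -0.32 to 0.56, with a median of 0.05. The B-cell list ran from -0.28 to 1.05, with a median of 0.15. None of the 4 markers measured for NKT cells, the 5 for CD4 T cells or the 4 for erythroid cells passed. Of 4 measured genes listed for gamma-delta T cells, 1 was higher, the receptor segment Tcrg-V1 (1.56). The others did not pass, and the list ran down to -0.30, with a median of -0.03.

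The profile over the 4 arrays most like that of the brightest Klra probe set, the one of Klra9 and Klra3, was sought by the Euclidean distance between log2 values centred on each probe set's mean. Outside the Klra family the nearest 5 genes were Ppfibp2 (distance 0.072), Klrb1a (0.087), Slc37a2 (0.087), Zfp608 (0.11) and Klrk1 (0.11). Slc37a2 read 908 and 895 in Ly49+ cells, against 520 and 502 in Ly49- cells. Ppfibp2 read 132 and 118 in Ly49+ cells, against 66.8 and 59.4 in Ly49- cells, below the controls there. The likeness rests on 4 values a gene.

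**Figure D5:**
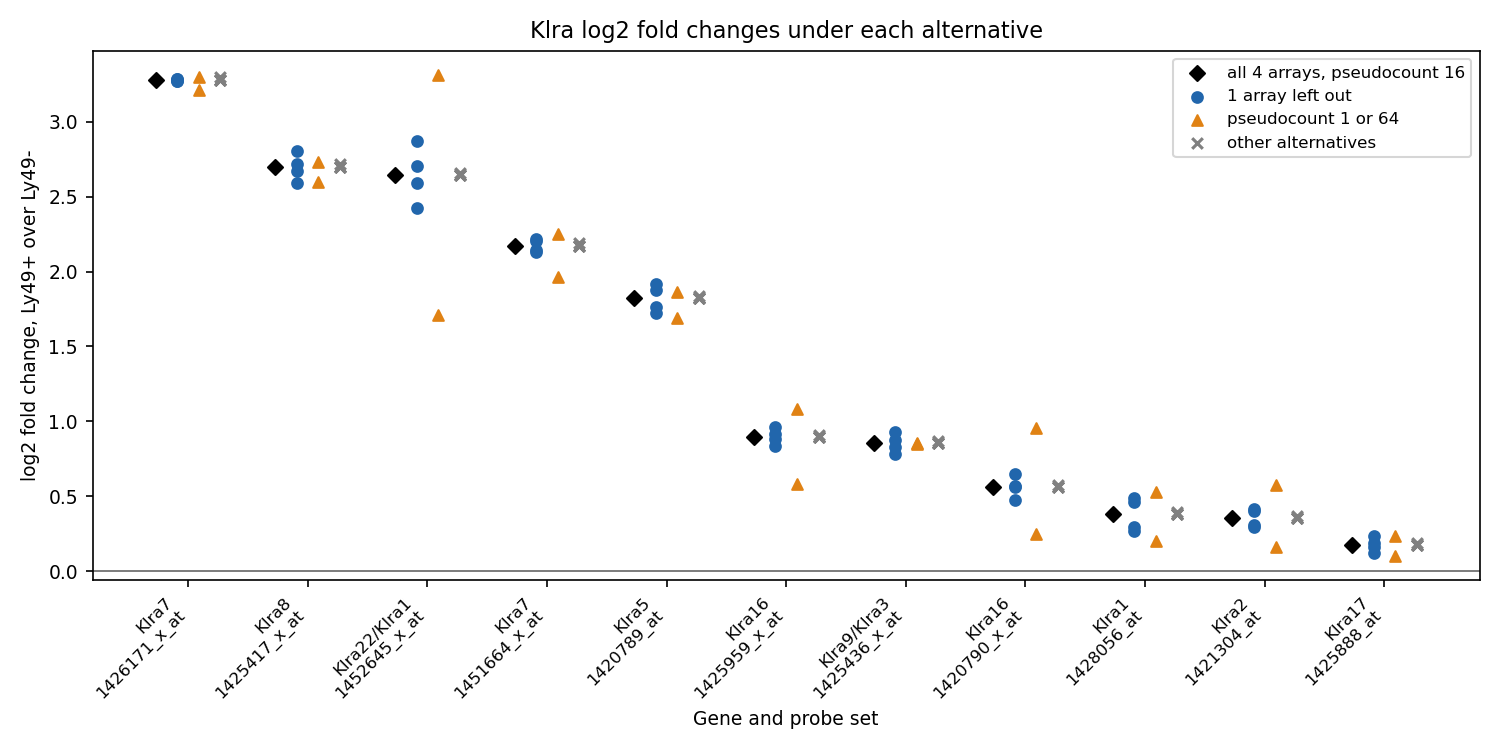
log2 fold change, Ly49+ over Ly49-, of each Klra probe set with all 4 arrays and a pseudocount of 16 (black), with 1 array left out (blue), with a pseudocount of 1 or 64 (orange) and under the other alternatives (grey). The brighter Klra7 probe set keeps within 3.21 and 3.30, while the shared probe set of Klra22 and Klra1, whose Ly49- arrays lie below the controls, runs from 1.71 to 3.31 with the pseudocount.

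The median intensity of an array was between 188.5 and 190.4, and the Pearson correlation of log2 values over all probe sets between 0.996 and 0.998. The ratio of the 3′ to the 5′ control probe set of Actb, a sign of RNA quality, was 1.26 and 1.29 on the Ly49+ arrays, against 1.37 and 1.34 on the Ly49- arrays, and its part in the results was not tested. On the Ly49- replicate 1 array an older probe set for the bacterial hybridisation control BioB read 702, against 2750 to 3084 on the others, while the newer probe set for the same control read 2833 to 3111 on all 4. Without that array the 6 Klra probe sets called were those of Klra7 (both), Klra8, Klra5, Klra22 with Klra1, and Klra9 with Klra3.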

How the data were processed

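Expression was measured on 2 arrays of Ly49+ and 2 of Ly49- CD8 T cells, grouped by the labels. Biotin-labelled cRNA was made by the Affymetrix protocol, per the labels. The authors deposited 1 linear intensity for each probe set and array, with nearly equal quartiles on the 4 arrays. How they summarised and normalized it is not stated per the labels or the file headers. Of 45101 probe sets, 64 controls were left out. Names came from the platform annotation of 2016, in which 9160 tested probe sets were not listed.

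The log2(intensity + 16) values of all 45037 probe sets were fitted on group alone with limma 3.58.1 in R 4.3.3 (lmFit, eBayes with a trend). The fit had 2 residual degrees of freedom and 5.05 from the prior. P-values were adjusted by Benjamini-Hochberg over all probe sets, with a threshold of 0.05, and intervals are 95% intervals. Fold changes on this scale understate those of dim probe sets. A group with both arrays at or below the highest Bacillus subtilis control was treated as a bound. Listed genes were read only from probe sets with 1 gene symbol, and of several such probe sets the brightest was used. Promoter windows were aligned with Biopython 1.88 (global, free end gaps, match 1, mismatch -1, gap opening -3, extension -0.5).

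The fit was tested on simulated data. With spreads drawn from the limma prior it held its error rate. With the spreads fitted on these arrays, whose tail is heavier, it made clearly more false calls than the nominal rate, which bears most on calls near the threshold. The first of these was made the pass criterion after the second had failed it, and a robust spread is among the alternatives.

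The genes named were all Klra probe sets, up to 4 called genes of each list with the smallest p, Tyrobp, Hcst, Fcer1g, Ptpn6, H2-D1, H2-K1, Ikzf2, the sort genes and the 5 nearest profiles. Tcf7 was to be named whatever its p but was not measured. Klrg1, S100a9, Itgam, Csf3r, Ncr1 and Gzma were named after their values were seen. The members and lists were chosen with earlier results of these data known. The number of arrays limits the precision, and an exact permutation of 2 against 2 arrays cannot go below a two-sided p of 0.333. Alternatives were quantile normalization, other pseudocounts, bright probe sets alone, other models of the spread, a replicate block, no _x_at or _s_at probe sets, a looser threshold of 0.1, and each array removed in turn.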

Additional observations from a re-analysis of the deposited data

How the results depend on the processing

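Klra7 (both probe sets), Klra8, Klra5 and the probe set of Klra9 and Klra3 passed in every fit that included them. The count of Klra probe sets called was 8 with all arrays, 5 to 6 with 1 array left out, 9 at an adjusted p under 0.1, and 1 of 4 without the types _x_at and _s_at, a fit that leaves out 7 of the 11. Without a trend of the spread, 1420790_x_at of Klra16 had an adjusted p of 0.081. The count over all probe sets was 538 and moved to 233 without a trend and to 1415 with the replicate number as a block, and lay between 31 and 104 with 1 array left out. The pathway list genes called were 11 with all arrays, 16 with the replicate block and 3 to 7 with 1 left out. The marker list genes called were 20 with all arrays, 28 with the replicate block, 8 without a trend and 3 to 11 with 1 array left out. With 1 array removed, its group kept a single array, whose spread was taken from the other group, and fewer samples remained. The labels do not say what arrays of the same replicate number share. Their deviations from the group means correlated at 0.24 over probe sets, and the block called the same number of Klra probe sets, 8. The cause of the other shifts was not tested. Signals below the controls limit Klra1, Klra2, Klra17 and Klra16.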
